A study of Drosophila melanogaster with 6 samples.

Results

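The genes described are 10 genes of lipid synthesis, fat storage, fat breakdown and lipid transport, out of 11805 genes with a probe set of their own on the array. They were chosen by name, from the known roles of their products, and each had exactly 1 probe set among the 15131 of the array. The study measured total RNA of *Drosophila melanogaster* on Affymetrix arrays at 10 and 40 days of adult age. There were 3 samples of each age, all of the Canton S laboratory strain with no other treatment or genotype named, and all labelled as female heads. By the labels each sample was a pool of 75 to 100 heads, and the pools were independent biological replicates, numbered 1 to 3 at each age. A pool averages over flies and over every cell type of the tissue, so that fewer cells of a type and less RNA per cell cannot be told apart in any value below. Values are log2 expression values, in which a difference of 1 is a 2-fold change; they ran from 2.06 to 16.10 over the table, with array medians between 7.51 and 7.53.

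Insects keep their energy as triglyceride in lipid droplets, mostly in the fat body, a tissue with the roles of liver and adipose tissue that also lines the head capsule. Acetyl-CoA carboxylase and fatty acid synthase build fatty acids from acetyl-CoA, a desaturase introduces the double bond, and perilipins coat the droplets and control access to them. In the fed fly secreted gut lipases digest dietary fat, and in the fasted fly the adipose lipase brummer releases fatty acids from the droplets, while the lipoprotein lipophorin carries lipid between organs in the hemolymph.

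Several tissue markers went against the label of the samples. Photoreceptor genes were bright, with a median log2 level of 11.22 over 7 genes, but 15 genes of the male reproductive tract had a median of 14.04 with none under 4, and 10 digestive gut genes one of 14.36. Of 13 ovary and egg genes 12 lay under 4. The median of 15 fat body markers was 7.74, and the brightest were *Cyp4g1* at 16.07, *Pepck1* at 14.10 and *Tsf1* at 13.56. *Cyp4g1* also stands in the list of 8 oenocyte markers, so it is not specific to fat body. The larval markers *Fbp1* and *Fbp2* lay at the lowest values of the table. In the same fat body list the yolk protein genes *Yp1*, *Yp2* and *Yp3* had means of 7.29, 3.61 and 8.86. The medians of the neuron and glia markers were 7.85 and 8.79. The ages below are therefore those of samples that are female heads by label only. The sex of the flies and the share of each tissue in the pools were not tested.

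The synthesis genes, *FASN1*, *FASN2*, *ACC* and *Desat1*, were all abundant. *FASN1*, which encodes a fatty acid synthase, had log2 values of 14.77, 14.91 and 14.91 in the 10-day samples numbered 1, 2 and 3, and of 14.61, 14.66 and 14.97 in the 40-day samples with the same numbers. *FASN2* encodes a second fatty acid synthase and lies close to *FASN1*, with only the genes of 2 small nuclear RNAs between them in the RefSeq order. Its values were 12.09, 11.66 and 11.91 at 10 days and 12.07, 11.80 and 12.08 at 40 days, and both samples of number 2 were below all others. *ACC* encodes acetyl-CoA carboxylase, the enzyme of the committed step of fatty acid synthesis, and gave 12.83, 13.65 and 13.22 at 10 days and 12.82, 13.43 and 13.25 at 40 days. Its samples stood in the same order at both ages, with number 1 lowest, number 3 between and number 2 highest. *Desat1* encodes the delta-9 desaturase and was nearly flat, at 15.07, 15.004 and 15.06 and then 15.16, 15.04 and 14.98. Its probe set carries the suffix that Affymetrix gives to probes shared by several transcripts, and its values lie near the top of the scale.

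Of the storage genes, *Lsd-1* and *Lsd-2* encode the 2 perilipins of the fly, which coat lipid droplets. *Lsd-1* had values of 11.93, 12.27 and 12.22 at 10 days and of 11.96, 11.68 and 12.24 at 40 days. The number 2 sample was the highest at 10 days and the lowest at 40 days, so that this gene followed neither the ages nor the numbers. *Lsd-2* had values of 11.76, 12.32 and 11.46 at 10 days and of 11.46, 11.91 and 11.45 at 40 days, with both samples of number 2 above all others.

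The breakdown genes held the widest spread. *bmm* encodes brummer, the adipose triglyceride lipase, and gave 11.62, 13.22 and 11.82 at 10 days and 11.36, 12.90 and 11.62 at 40 days. Its samples of number 2 stood more than a log2 unit above the others at both ages. *mag* encodes magro, a lipase secreted into the gut that digests dietary fat, and gave 12.97, 11.28 and 12.93 at 10 days and 12.49, 10.97 and 12.50 at 40 days. Here the samples of number 2 were the lowest at both ages. *Lip3* encodes a lipase of the same acid lipase family as magro and was dim, at 2.20, 4.11 and 2.64 at 10 days and 2.06, 4.17 and 2.20 at 40 days. Its mean over the 6 arrays was 2.90, under the minimum of 4 set for testing, and 4 of its 6 values lay near the lowest value of the table, so that it was given no test and no fold. Its samples of number 2 were the only ones above 4.

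*apolpp*, which encodes the apolipoprotein of lipophorin, was the brightest of the 10 genes, at 15.25, 15.12 and 15.34 at 10 days and 15.26, 15.17 and 15.27 at 40 days. Both samples of number 2 were below the others, with a mean difference of -0.13. By their mean, *apolpp*, *Desat1* and *FASN1* stood at percentiles 99.7, 99.5 and 99.2 of all probe sets, and the other 6 tested genes had means between 11.73 and 13.20.

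**Figure D1:**
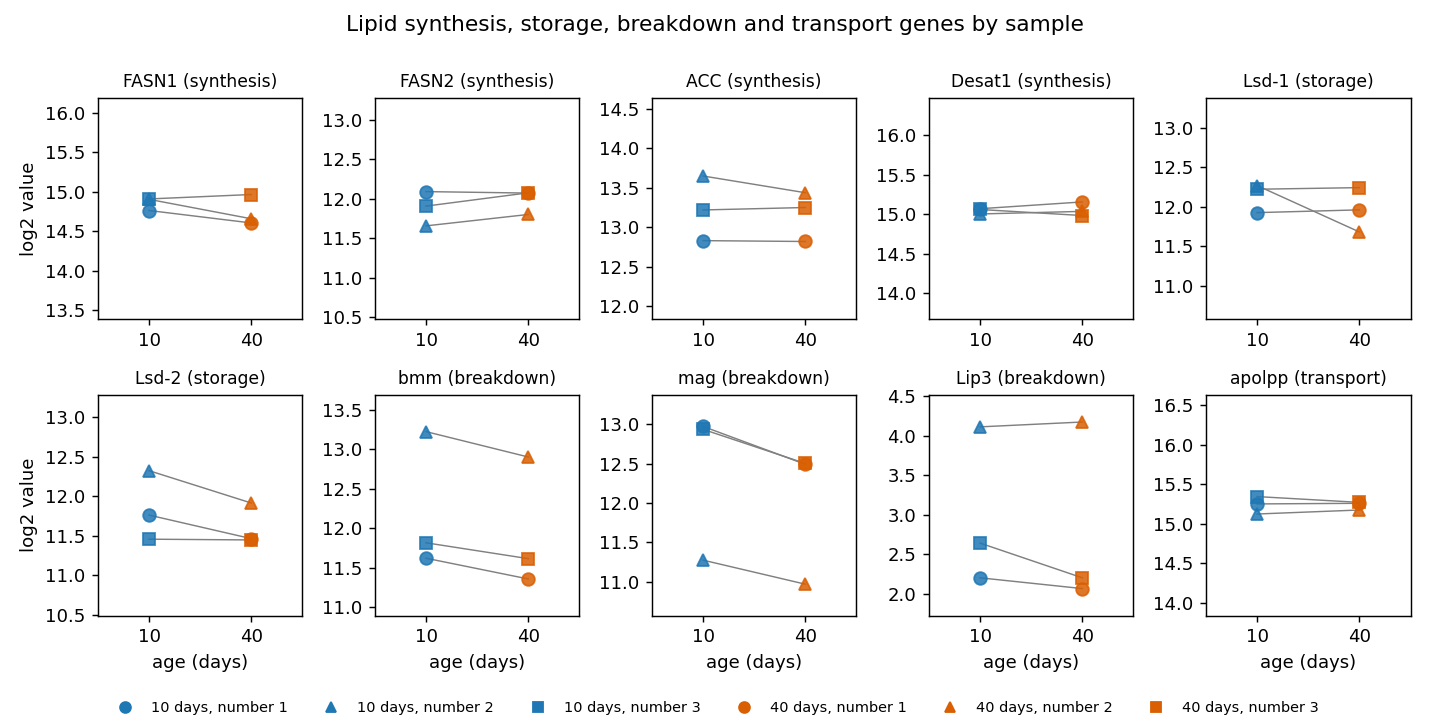
Log2 expression value (vertical axis, the same span in every panel) of the 10 genes at 10 and 40 days of age, with 1 point for each of the 6 samples. Colour gives the age, the symbol gives the replicate number and grey lines join samples of the same number; the triangles of number 2 stand apart for *bmm* (13.22 and 12.90) and for *mag* (11.28 and 10.97), and every gene overlaps between the ages.

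The first comparison asks whether these genes differ between younger and older flies. None of the 9 tested genes passed the test between the ages by limma with Benjamini-Hochberg adjustment, where 0.34% of all 10286 tested probe sets did. None had an unadjusted p under 0.05 either, where 13.1% of all tested probe sets did. The samples of the 2 ages overlapped for all 9, where 19.8% of all tested probe sets did not overlap. The differences of 40 minus 10 days ran from -0.41 for *mag* to 0.10 for *FASN2*, with a median of -0.12 against 0.01 over all tested probe sets. In size they were like those of other genes, with a median absolute difference of 0.12 among these genes and 0.12 over all.

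Within the shared numbers, the 2 tested breakdown genes and *Lsd-2* were lower at 40 days in 3 of 3 pairs. Samples of the same number deviated together from their age means, with a correlation above 0.1 for each of the 3 numbers, so the numbers were taken to pair the samples. *mag* differed by -0.48, -0.30 and -0.43 in the pairs numbered 1, 2 and 3, with a mean difference of -0.41 ± 0.05 (log2 ± SE with the number as a block, n = 3 pairs). With the block *mag* fell by 0.41 on the log2 scale and passed the test (limma adjusted p = 0.0468), a 1.32-fold decrease, while without the block the same difference had an SE of 0.62 and adjusted p = 0.816. The call was lost when any 1 sample was left out. Limma adjusted p was 0.240, 0.0729 and 0.121 without the 10-day sample of number 1, 2 or 3, and 0.238, 0.0717 and 0.122 without the 40-day sample. With the block the left-out sample's partner gives no information on age, so both fits of a number use the same 2 pairs. The difference was -0.37, -0.46 and -0.39 without number 1, 2 or 3. Each fit leaves 1 residual degree of freedom per probe set. Over all tested probe sets the calls fell from 198 to between 7 and 119, so other probe sets lost their calls as well. Which of the 198 kept theirs was not followed. *bmm* gave -0.26, -0.32 and -0.20 in the 3 pairs, a mean of -0.26 ± 0.05 that did not pass (limma adjusted p = 0.0771 with the block and 0.879 without). *Lsd-2* gave -0.30, -0.41 and -0.01, with a mean of -0.24 ± 0.09 (adjusted p = 0.193 with the block). Of the 9 genes 1 passed with the block, *mag*, where 1.92% of all tested probe sets passed. All 3 pairs were lower for 3 of the 9 genes and higher for 0, while over all tested probe sets 23.2% were lower and 26.1% higher in all 3 pairs.

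The synthesis genes showed no shared direction with age. *FASN1* gave -0.16, -0.25 and 0.06 in the 3 pairs, with a mean of -0.12 and a 95% interval, with the block, from -0.29 to 0.06 (limma adjusted p = 0.338 with the block). *FASN2* gave -0.02, 0.14 and 0.17, with an interval from -0.05 to 0.25 (adjusted p = 0.355). For *ACC* the interval ran from -0.23 to 0.10 and for *Desat1* from -0.10 to 0.13 (adjusted p = 0.563 and 0.867 with the block). *Lsd-1* had the widest interval, from -0.54 to 0.18, and its pair of number 2 differed by -0.59 while the others differed by 0.03 and 0.02. *apolpp* had a mean difference of -0.00 with an interval from -0.11 to 0.10. These intervals hold no 2-fold change in either direction, but with 3 pairs they do not show that the genes were alike at the 2 ages. Synthesis and breakdown were not tested against each other, since the value of a probe set on this array has no common scale with that of another gene.

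**Figure D2:**
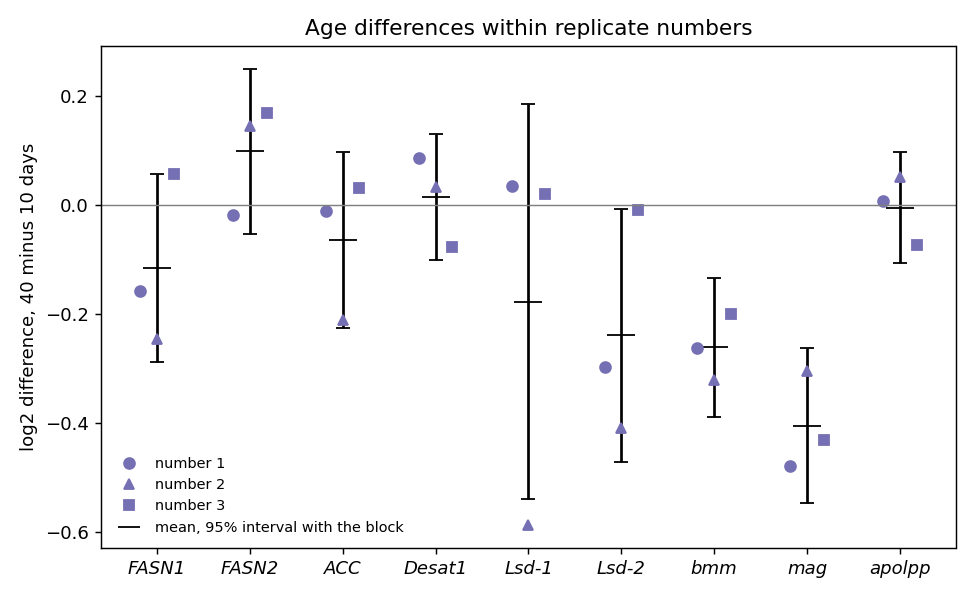
Log2 difference of 40 minus 10 days (vertical axis) for the 9 tested genes, with 1 symbol for each pair of samples of the same replicate number, a dash for the mean and a bar for its 95% interval in the model with the number as a block. All 3 symbols of *bmm*, *mag* and *Lsd-2* lie below 0, and the intervals of the synthesis genes cross 0.

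The second comparison is between the replicate numbers that both ages carry. With age in the model, 3 of 9 genes differed between the numbers by limma's F test with Benjamini-Hochberg adjustment, where 4.72% of all tested probe sets did. They were *bmm* and *mag*, each with adjusted p = 0.00501, and *ACC* with adjusted p = 0.0290. With no filter on low values none of the 3 passed (adjusted p = 0.128, 0.133 and 0.207), and 1 of all 15131 probe sets did. *bmm* was 2.75-fold higher in the samples of number 2 than in the mean of the others, by 1.51 at 10 days and by 1.42 at 40 days on the log2 scale. *mag* differed the other way, by -1.68 and -1.52, or 3.03-fold lower in number 2. These 2 of the 9 genes differed at least 2-fold in number 2, where 2.4% of all tested probe sets did. Number 2 was singled out with results of these data known, and no such counts were made for numbers 1 and 3. Counts and ranks of number 2 against the others, here and below, therefore describe the values and are not a test. Of the 10286 tested probe sets 98 had a larger difference of number 2 from the others than *bmm* and 83 a larger one than *mag*. *ACC* was 1.43-fold higher in number 2, by 0.62 and 0.40 at the 2 ages. The adjusted p of *bmm* became 0.0646 without the 10-day sample of number 1 and 0.0757 without the 40-day one, and that of *mag* 0.0612 and 0.0752. *ACC* had 0.192 and 0.167 without these, and 0.0583 without the 10-day sample of number 2; each of these fits leaves 1 residual degree of freedom per probe set.

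The other 6 genes did not pass. *Lsd-2* was 1.502-fold higher in number 2, a larger difference than that of *ACC*, without passing (F test adjusted p = 0.0698); it passed without the 40-day sample of number 3 (0.0365). *FASN2*, at -0.34 and -0.27, and *apolpp*, at -0.17 and -0.09, were lower in number 2 at both ages without passing (adjusted p = 0.104 and 0.203). *FASN1*, *Desat1* and *Lsd-1* had adjusted p of 0.226, 0.430 and 0.455. In all, both samples of number 2 lay above the others for 3 of the 9 genes and below them for 3, where over all tested probe sets the shares were 13.2% and 12%. The replicate number made up more than 50% of the sum of squares over the 6 samples in 8 of the 9 genes, *Lsd-1* being the exception, where 49% of tested probe sets with any spread reached that share. For *bmm* it made up 96.5%, age 3.42% and the rest 0.12%, and for *FASN1* 59.6%, 18.4% and 22.0%.

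**Figure D3:**
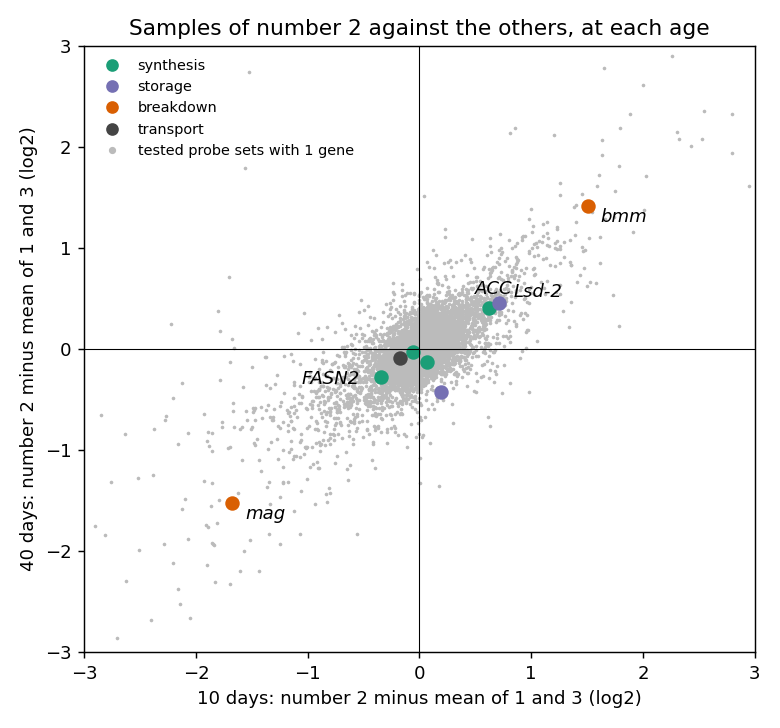
Difference of the number 2 sample from the mean of numbers 1 and 3, on the log2 scale, at 10 days (horizontal axis) and at 40 days (vertical axis), for the 9 tested genes (large points, coloured by role) and for the tested probe sets with 1 gene (grey; 21 of 9278 lie outside the axes). *bmm* at 1.51 and 1.42 and *mag* at -1.68 and -1.52 lie far from the centre in opposite corners, with similar sizes at the 2 ages.

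Some markers of gut and of fat body moved with the replicate number as well. No tested marker of the oenocyte, male tract, ovary, photoreceptor, neuron, glia, muscle or hemocyte lists passed the F test of the number. Of the 10 gut markers 6 lay below the others in both samples of number 2 and 1 above, and 4 passed the F test of the number. Over all tested probe sets 12% lay below, 13.2% lay above and 4.72% passed. The summed level of the gut markers was 17.27 and 17.32 (log2) in the samples of number 2 and between 17.49 and 17.76 in the others. Among its brightest genes *alphaTry*, *Jon65Aiv* and *betaTry*, which encode secreted proteases, differed by -0.15, -0.71 and -0.17 in number 2, and *Jon65Aiv* passed (adjusted p = 0.0220). The others that passed were the protease genes *Jon65Aiii* and *Jon99Fi*, at -0.71 and -3.07, and the maltase gene *Mal-A1*, at 0.75 (0.03001, 0.0129 and 0.0199). Of the 15 fat body markers 4 lay above the others in both samples of number 2 and 1 below, and 6 of the 11 tested passed the F test. One of them, *Had1*, is counted again in the beta-oxidation list below. The summed level of the list was 17.00 and 17.12 in number 2 and between 16.72 and 16.93 in the others. The largest part of this sum in each sample was *Cyp4g1*, which is shared with the oenocyte list. *Pepck1*, which encodes the rate-limiting enzyme of gluconeogenesis, was higher by 1.03 in number 2 (adjusted p = 0.00501). *Sardh*, the sarcosine dehydrogenase gene, was higher by 2.56 (0.0177), as was *Had1* by 0.78 (0.0289), and the adult fat body gene *fit* was lower, at -4.40 (0.0186). The storage protein gene *Lsp2* and the transferrin gene *Tsf1* were highest in number 3, with *Lsp2* at 9.31 and 7.55 there and between 2.95 and 5.79 in the others (0.0110 and 0.0290). *Cyp4g1*, a P450 of hydrocarbon synthesis, differed by 0.01 and did not pass. Male reproductive tract markers summed to 18.08 and 18.32 in number 2 and to between 18.40 and 18.52 in the others, with 0 of 15 passing. The part of these tissues in the values of *bmm*, *mag* and *ACC* was not tested. Between the ages the summed levels overlapped, from 17.27 to 17.55 at 10 days and from 17.32 to 17.76 at 40 days for gut, and from 16.72 to 17.12 and from 16.73 to 17.00 for fat body. Within the pairs numbered 1, 2 and 3 the gut sum went from 17.55 to 17.76, from 17.27 to 17.32 and from 17.51 to 17.49, while *mag* was lower at 40 days in each. With the block 1 of 10 gut markers passed between the ages, *Jon99Fi*, higher by 1.65 at 40 days (limma adjusted p = 0.0446). Of the fat body markers 2 of 11 passed with it, the cold-response gene *Fst*, higher by 1.41 (0.0152), and *Lsp2*, which fell by 2.19 (0.0317). Of the male tract markers the sperm gene *dj* fell by 1.18 without the block (0.00347) and passed with it (0.0123). With the block 2 of 11 muscle and 2 of 9 hemocyte markers also passed, against 1.92% of all tested probe sets. The part of these tissues in the fall of *mag* was not tested.

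The profiles most like *FASN1* and *bmm* over the 6 arrays were those of different genes. For *FASN1* the highest Pearson correlations were those of *CG6574*, *CG9953* and *Fatp3*, at 0.985, 0.977 and 0.975, among 9269 probe sets of other genes, and 48 exceeded 0.9. *Fatp3* encodes a fatty acid transport protein. For *bmm* they were those of *CG8788*, *Gart*, a purine synthesis gene, and *LTV1*, a ribosome assembly gene, at 0.998, 0.996 and 0.996, and 365 exceeded 0.9. The 6 points share the 2 arrays of number 2, and over the 4 other arrays the correlations with *bmm* were 0.982, 0.973 and 0.920. These genes were chosen over all 6 arrays, the 4 included, so that these values cannot show a likeness beyond number 2.

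Other genes of lipid metabolism were read from 10 lists, which held 156 tested probe sets of 148 genes. None passed the test between the ages by limma without the block, and 13, or 8.33%, had an unadjusted p under 0.05, against 13.1% of all tested probe sets. Of these 13, 11 were lower and 2 higher at 40 days. The median difference of the 156 probe sets was -0.07, against 0.01 over all tested probe sets, and 97 of the 156 lay below 0. No count of signs is given for all tested probe sets, and genes measured on the same arrays are not independent. The counts of signs here and for the single lists below therefore describe the values and are not a test of direction. With the block 5 of the 156 fell and 0 rose, where 1.3% of all tested probe sets fell. For these 5 no blocked fit with a sample left out is given. In such fits the calls over all tested probe sets were between 7 and 119 instead of 198, and *mag* lost its call. *Cyt-b5-r*, which encodes a cytochrome b5-related protein with a desaturase domain, fell by 0.58 (limma adjusted p = 0.0191 with the block), and *Elovl7*, which encodes a fatty acid elongase, fell by 0.41 (0.0384). *CG11598*, a predicted acid lipase like *mag* and *Lip3*, fell by 1.25 (0.0384), from 11.88 ± 0.58 to 10.64 ± 0.19 (mean log2 ± SD, n = 3 each). *wal*, the electron transfer flavoprotein subunit that takes electrons from fatty acid oxidation, fell by 0.29 (0.0484), and *CG9547*, an acyl-CoA dehydrogenase family gene, fell by 0.60 (0.0468). Without the block *CG11598* had adjusted p = 0.220, which was 0.0321 without the 10-day sample of number 2 and 0.0492 without both samples of number 2.

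In the lists of synthesis, the third fatty acid synthase gene *FASN3* gave 0.14, the acetyl-CoA synthetase gene *AcCoAS* -0.19 and the malic enzyme gene *Men* -0.12 between the ages (limma adjusted p without the block 0.451, 0.745 and 0.820). Of the elongase and desaturase list 14 of 20 probe sets were below 0, and *CG5326* and *CG17821* gave -1.04 and 0.24 (0.379 and 0.403). *CG5326*, a predicted elongase, passed at 0.0301 without the 40-day sample of number 2. For triglyceride synthesis 12 of 16 were below 0: *Agpat3*, an acyltransferase gene, gave -0.25, *mdy*, which encodes the diacylglycerol acyltransferase midway, -0.53, and *mino*, a glycerol-3-phosphate acyltransferase gene, -0.61 (0.269, 0.285 and 0.483). The predicted lipase genes *CG5162* and *CG2772* gave -0.56 and -0.49 (0.230 and 0.351), with 15 of 21 of the lipase list below 0.

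Of lipid carriers 11 of 17 were below 0, with the lipocalin gene *GLaz* at -0.59, *Npc2h* at -0.22 and *Scp2* at -0.18 (limma adjusted p = 0.144, 0.263 and 0.381). Among droplet genes *Jabba*, which encodes a droplet protein that binds histones, gave 0.59, *Pcyt2* 0.14 and *Fitm* -0.31 (0.314, 0.410 and 0.502). The receptor gene of adipokinetic hormone, *AkhR*, gave 0.63, the hormone gene *Akh* -0.25 and *HDAC4* 0.23 (0.375, 0.403 and 0.493). The transcriptional list had 12 of 15 above 0, led by *Hr96* at 0.14, *SCAP* at 0.26 and *S2P* at 0.09 (0.460, 0.508 and 0.573). In the carnitine shuttle and mitochondrial beta-oxidation list 21 of 25 were below 0, with a median of -0.13, and *CG4594* and *CPT2* gave -0.42 and -0.20 (0.460 and 0.578). In the peroxisomal list 7 of 14 were below 0, and *Pex19*, *Pex16* and *Acox57D-p* gave -0.24, -0.14 and -0.20 (0.351, 0.398 and 0.412).

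Between the replicate numbers 35 of the 156 related probe sets, or 22.4%, passed the F test, against 4.72% of all tested probe sets. Both samples of number 2 lay above all others in 19 of them, below in 10 and within the range of the others in 6. With no filter on low values 0 of 188 passed. *Dgat2* and *hll* reached the minimum mean of 4 only through the number in which they were high; with such probe sets left out, an alternative added after the data were seen, 34 of 154 passed, against 4.72% of 10252. The count was 1 without the 10-day sample of number 1, 14 without that of number 2, and 0 without the 40-day sample of number 1. It was 5 without both samples of number 2.

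The list of the carnitine shuttle and mitochondrial beta-oxidation held the most of these, 12 of 25. It held 11 of 24 with *hll* left out as above, of which 10 were higher in number 2. The counts are of the list, and the part of each gene in the mitochondrial pathway was not tested. *CG17544*, for example, is a homologue of acyl-CoA oxidases, of which *Acox57D-p* stands in the peroxisomal list. With no filter on low values 0 of 26 passed. *colt*, which encodes the carrier of acylcarnitines into mitochondria, was higher by 0.63 and *Mtpbeta*, a subunit of the trifunctional protein, by 0.73 (F test adjusted p = 0.0289 and 0.030008). The thiolase gene *yip2* was higher by 1.02 and *Had1*, the same probe set as among the fat body markers above, by 0.78 (0.0237 and 0.0289). *yip2* had values of 11.85, 12.98 and 12.25 at 10 days and 11.64, 12.78 and 11.67 at 40 days, so that the samples of number 2 were the highest at both ages. *wal*, *CG9547*, *Arc42*, *Echs1*, *CG4598* and the acyl-CoA synthetase gene *pdgy* were higher by 0.49 to 1.12. *hll*, another acyl-CoA synthetase gene, was at 8.48 and 7.30 in number 2 and between 2.06 and 2.08 in the 4 others, at the lowest values of the table, so that no fold is given. *CG17544*, an acyl-CoA oxidase homologue, was lower in number 2, at -1.08. Between the ages none of the 25 passed without the block. The count of 12 was 0 without the 10-day or the 40-day sample of number 1, 4 and 7 without the 10-day or the 40-day sample of number 2, and 1 without both samples of number 2.

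The lipase list held 7 of 21, in both directions. *CG5966*, a predicted lipase gene, had values of 9.07, 12.50 and 9.66 at 10 days and 9.16, 12.37 and 9.11 at 40 days, higher in number 2 by 3.18 (F test adjusted p = 0.00654). *CG17192*, another predicted lipase gene, had values of 12.84, 9.14 and 12.09 and then 12.75, 8.59 and 11.36, with a difference of -3.40 in number 2 (0.00547). These 2 genes went the ways of *bmm* and of *mag* with larger differences. *CG6283*, *Lip4* and *CG6271* were higher in number 2 by 2.10, 1.10 and 0.87, *CG6295* differed by -1.36, and *CG8093* was low in the samples of number 1, at 9.91 and 9.72, and between 11.21 and 11.43 in the others.

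**Figure D4:**
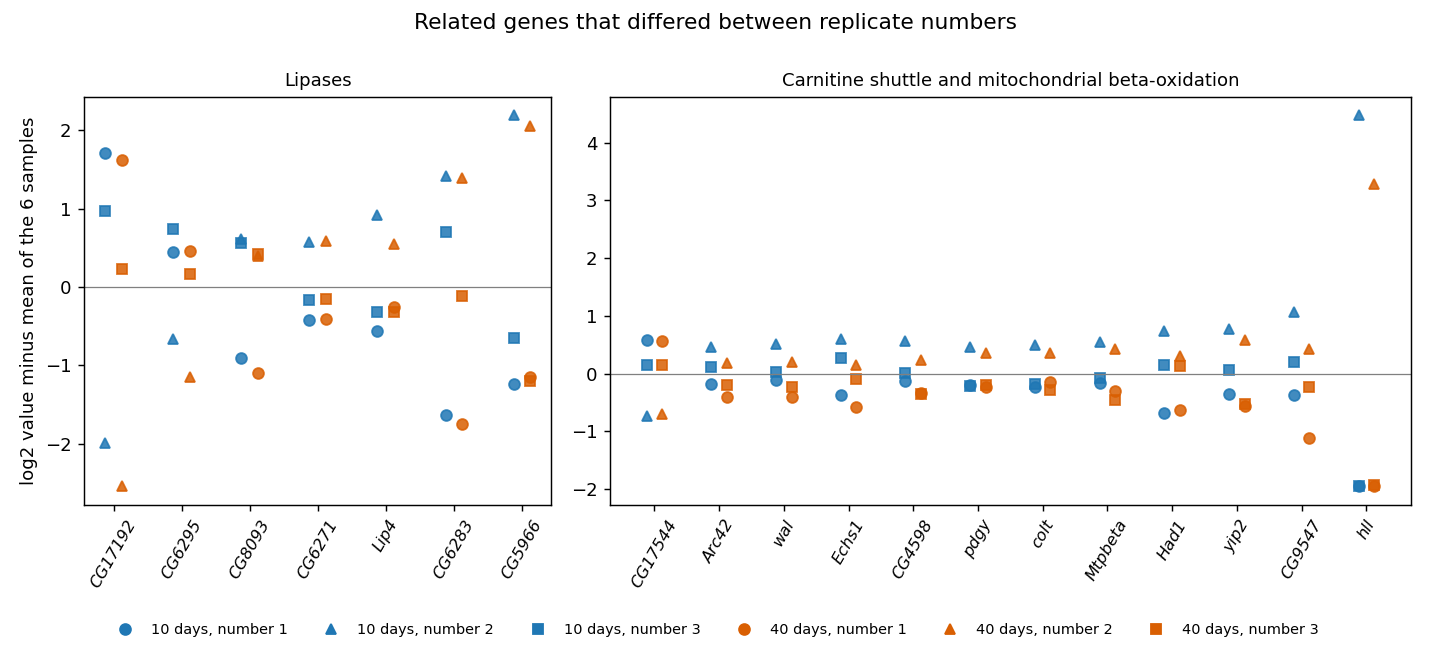
Log2 value minus the mean of the 6 samples (vertical axis) for genes that passed the F test of the replicate number. The left panel shows 7 genes of the lipase list and the right panel 12 of the carnitine shuttle and beta-oxidation list. There is 1 point per sample, coloured by age and shaped by number. The vertical scales differ between the panels; triangles of number 2 are the highest at each age for 11 of the 12 genes on the right, *hll* among them, and lie on both sides of 0 on the left.

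Genes of synthesis and of hormone control were split. *AcCoAS* was higher in number 2 by 0.42 (F test adjusted p = 0.0219), as was *Lpin*, which encodes the phosphatidate phosphatase lipin, by 0.96 (0.0219) and *mino* by 0.82 (0.0492). *Gpdh1*, whose product supplies glycerol-3-phosphate, was lower on 1 of its 4 probe sets, at -0.52 (0.0211), and so were the elongase genes *Elovl7*, *CG9459* and *CG6660*, at -0.60, -0.61 and -0.72 (0.0212, 0.0203 and 0.0264). The brightest probe set of *Gpdh1* differed by -0.21 (0.191). *Cyt-b5-r* was lowest in number 1 and highest in number 2 at both ages (0.0199). *CG18609*, a predicted elongase gene, was highest in number 1 and lowest in number 3 at both ages, at 11.78 and 11.43 in number 3 and between 11.96 and 12.44 in the others (0.0305). *Dgat2*, an acyltransferase gene, was at 5.21 and 4.98 in number 1 and between 3.49 and 3.78 in the others, under the minimum. *InR*, the insulin receptor gene, was higher in number 2 by 0.83 (0.0202), and the insulin-like peptide gene *Ilp5* and the fat body peptide gene *CCHa2* were lower, at -1.15 and -0.91 (0.0289 and 0.0225). The sterol carrier gene *Npc2d* was lower in number 2, at -2.16 (0.00615), while *Npc2e* was high in number 3, at 6.32 and 6.49, and between 3.996 and 4.73 in the others (0.0183). The catalase gene *Cat* of the peroxisomal list was higher by 0.45 (0.0492). No droplet or transcriptional list member passed.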

How the data were processed

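The deposited values of the 6 arrays were read as log2 from their range. Per the submitters' processing notes the authors used GCRMA, a method of background correction, normalization and probe set summary, whose version is not given in the sources used here. Per the labels' protocols 150 ng of RNA was amplified per sample. The number of arrays limits the precision, and detection calls were not used.

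Probe sets were named through the platform annotation, with symbols updated by Entrez ID to RefSeq (Release 6 plus ISO1 MT): 13334 had 1 gene, 389 several and 1408 none. Probe sets with a mean of at least 4 were tested (10286) with limma 3.58.1 in R 4.3.3 (lmFit, eBayes with a trend, two-sided), adjusted by Benjamini-Hochberg over all of them at 0.05. Replicate numbers were tested by a moderated F test with age in the model. After removal of the age means, samples of the same number correlated at 0.707, 0.772 and 0.353, above the limit of 0.1, so blocked values are given where a call changes; the labels do not state a pairing. P-values cover only the spread between these pools. The code was checked on simulated data with planted changes, of which the test of the numbers recovered a smaller share than the tests of age.

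The genes, lists and tests were chosen with earlier results of these data known. Named are the 10 genes, up to 3 genes per related list with the smallest adjusted p between the ages, those called with the block, the 3 profiles most like *FASN1* and *bmm*, and the brightest markers; those called between numbers were named after their values were seen. Alternatives were filters, scalings, moderation, a floor of 4, array weights, the block and left-out samples. Plots used Python 3.11.15, pandas 2.3.3 and matplotlib 3.10.9.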

Additional observations from a re-analysis of the deposited data

How the results depend on the processing

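Between the ages, the count of all tested probe sets called, 35, was 21 with a minimum mean of 6, 198 with the replicate block, 17 without both samples of number 2, and 16 to 32 with 1 sample left out. Of the 9 member genes 0 were called under every alternative run without the block and 1 with it (*mag*). With the block and 1 sample or both samples of number 2 left out 0 were called, in fits added after the data were seen. These blocked fits hold 2 pairs and 1 residual degree of freedom each, and called between 7 and 119 of all tested probe sets. For the related genes the count of 0 was 5 with the replicate block, 1 without both samples of number 2 and 0 to 1 with 1 sample left out. Between the numbers, the counts were 485 for all, 3 for the members, 35 for the related genes and 12 for the beta-oxidation list. These counts became 1, 0, 0 and 0 with no filter, where 15131 probe sets were tested. They became 47, 0, 5 and 1 without both samples of number 2, which leaves numbers 1 and 3 to compare, and 0 to 488, 0 to 4, 0 to 33 and 0 to 10 with 1 sample left out. Alternatives for the related genes and beta-oxidation were added after the data were seen. *ACC* had an adjusted p of 0.0563 for the number without a trend; *Lsd-2* passed with a minimum mean of 6 (0.0442) and with robust moderation (0.0416). Causes of these changes were not tested. Without the block, age differences that did not pass changed sign. *apolpp* became 0.00353 after quantile normalization, 0.00734 with array weights and -0.0630 to 0.0474 with 1 sample left out, and *Desat1* -0.0149 with array weights. Without both samples of number 2 *ACC* gave 0.0101 and *Lsd-1* 0.0276. With 1 sample left out *ACC* ran from -0.27 to 0.14, *Desat1* from -0.0344 to 0.0517, *FASN2* from -0.0159 to 0.201, *bmm* from -0.73 to 0.24 and *Men* from -0.276 to 0.0256. *mag* ran from -0.96 to 0.10 without the block and from -0.456 to -0.368 with it.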
